A study of Mus musculus with 5 samples.

Results

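The 10 genes described here belong to heparan sulfate biology and were followed through single-cell RNA-seq of 5 mouse synovial sarcoma (SyS) tumors: the glypicans *Gpc1*, *Gpc2*, *Gpc3*, *Gpc4* and *Gpc6*, the 6-O-sulfotransferases *Hs6st1*, *Hs6st2* and *Hs6st3*, and the 6-O-endosulfatases *Sulf1* and *Sulf2*. They were chosen by gene symbol, with no measured value in the rule, and all 10 were found among the 32286 features of the count tables. Every tumor came from an *hSS2* mouse, whose *Rosa26* locus expresses the human fusion *SS18::SSX2* once Cre has acted, and tumors were started by injecting TATCre protein into the limb in the second week of life and taken when the animals became morbid. The fusion was therefore common to all samples and no sample of normal tissue was compared. By label, 2 tumors were biphasic (BP, with gland-like epithelium beside spindle cells), 1 was monophasic (MP, spindle cells), 1 was a mixture of both (MP+BP) and 1 was a mixture of poorly differentiated and monophasic areas (PD+MP). The names of both BP tumors begin with the same number, which the labels do not explain, so that they may share an animal. The agent reached whichever limb cells took it up, and one piece of each tumor was dissociated while the tissue beside it went to histology.

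Glypicans are proteins held on the outer cell membrane by a lipid anchor, and they carry heparan sulfate, a long sugar chain whose sulfate groups bind growth factors such as FGFs, Wnts, hedgehogs and IGF-related ligands. The sulfotransferases of the *Hs6st* family add sulfate at the 6-O position of glucosamine while the chain is built in the Golgi, and the *Sulf* enzymes remove such sulfates again outside the cell. *Gpc3* is known as an oncofetal gene of liver and embryonal tumors and as the gene lost in an overgrowth syndrome, and *Gpc2* is best known from developing neurons and neuroblastoma.

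In genome build GRCm38 (GENCODE M21), *Gpc3* occupies chrX:52272426-52613950 on the minus strand, *Gpc4* chrX:52053021-52165252 (minus) and *Hs6st2* chrX:51387212-51681856 (minus), so that 3 of the 10 genes are X-linked. *Gpc6* (chr14:116925315-117976544, plus strand) and *Hs6st3* (chr14:119138341-119869815, plus) share chromosome 14. *Gpc1* (chr1:92831645-92860779), *Hs6st1* (chr1:36068400-36106446) and *Sulf1* (chr1:12692277-12861192) lie on the plus strand of chromosome 1, while *Gpc2* (chr5:138273655-138280005) and *Sulf2* (chr2:166073089-166155663) lie on the minus strand. Exons make up 0.788% of the 341.5 kb span of *Gpc3* and 0.234% of the 731.5 kb span of *Hs6st3*, and whether intronic reads were counted was not given in the sources used here. Within *Hs6st3* the annotation also places *1700006F04Rik* and *4930404K13Rik* on the same strand, which held 13 and 7 UMIs in SyS-like cells. Promoter windows of 300 bases (250 before and 50 after the start site, RefSeq, GRCm38.p6) were matched for 7 of the 10 genes. They are given for the gene of each family with the most UMIs in SyS-like cells, because these 3 were also higher there than in each of 3 other cell classes of the same tumors. Capitals mark a GC box (GGGCGG or its complement CCGCCC) or the letters TATAAA (either strand), which do not overlap each other.
*Gpc3*, chrX:52613925-52614224, minus strand: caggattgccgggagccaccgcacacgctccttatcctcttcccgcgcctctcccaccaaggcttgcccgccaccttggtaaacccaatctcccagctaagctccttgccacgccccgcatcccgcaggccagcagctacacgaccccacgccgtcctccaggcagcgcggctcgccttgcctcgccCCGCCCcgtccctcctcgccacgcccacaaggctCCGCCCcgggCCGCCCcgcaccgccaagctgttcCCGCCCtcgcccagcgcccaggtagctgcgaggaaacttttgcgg
*Hs6st3*, chr14:119138015-119138314, plus strand: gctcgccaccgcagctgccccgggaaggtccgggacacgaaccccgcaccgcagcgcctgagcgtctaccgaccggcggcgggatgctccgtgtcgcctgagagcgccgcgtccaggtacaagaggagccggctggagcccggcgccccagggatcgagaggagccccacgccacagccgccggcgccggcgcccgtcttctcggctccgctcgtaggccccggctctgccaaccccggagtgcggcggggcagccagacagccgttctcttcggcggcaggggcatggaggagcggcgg
*Sulf2*, chr2:166155634-166155933, minus strand: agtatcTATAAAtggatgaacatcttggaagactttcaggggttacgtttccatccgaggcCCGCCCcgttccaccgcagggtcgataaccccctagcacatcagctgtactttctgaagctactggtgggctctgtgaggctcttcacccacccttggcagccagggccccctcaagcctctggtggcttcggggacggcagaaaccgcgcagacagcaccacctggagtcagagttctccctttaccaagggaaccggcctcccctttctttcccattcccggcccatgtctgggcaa
The *Gpc3* window held 4 GC boxes at a GC content of 70.7%, the *Hs6st3* window had neither motif at 75.3%, and this *Sulf2* window had 1 GC box and a TATAAA at 58.0%. A second RefSeq window of *Sulf2* (chr2:166155236-166155535) had neither motif, at 62.3%. Of 32851 windows of the same length, 35.7% held a GC box and 13.6% held TATAAA, and the median GC content was 52.7%. These matches describe letters only and say nothing of a factor bound there.

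The tables held 51670 cells with 89996321 to 118649103 unique molecular identifiers (UMIs, 1 per captured RNA molecule) per tumor, and 39559 cells (76.6%) were kept. Clusters were named from marker genes, which gave 23648 SyS-like cells (59.8%) beside endothelial-like, macrophage-like, pericyte-like, fibroblast-like and rarer immune classes. The term stromal is used for the pericyte-like and fibroblast-like cells taken as one class. All 10 genes were withheld from the clustering, so their levels did not shape the classes. The EGFP entry of the tables, a reporter sequence that was withheld too, stood at 30.1 to 42.5 CPM (UMIs of a gene per 1000000 UMIs of the sum) in SyS-like sums and at most 5.46 CPM in stromal, endothelial-like and macrophage-like sums. Within the stroma, the few fibroblast-like cells of BP replicate 1 and MP+BP held 36.0 and 34.7 CPM, on 5 and 3 UMIs. Those of PD+MP held 6.21 CPM on 7 UMIs, and pericyte-like cells at most 2.41 CPM. The 12 SyS naming markers summed to 3392 to 5276 CPM in SyS-like cells and to 138 to 205 CPM in macrophage-like cells. Pairs of libraries shared 15 to 33 cell barcodes. Another 7024 cells in 5 clusters stayed unnamed although they held 6 to 8 SyS markers, and *Gpc3* in them ranged from 392 to 1014 CPM. PD+MP stood apart from the other tumors, with *Xist* (the RNA of the silenced X chromosome) at 0.243 CPM against 1557 to 4047 CPM and *Uty* (a Y-linked gene) at 134 CPM against at most 0.0399 CPM, so that its histology cannot be told apart from the sex of the animal. Values of a class are sums over its cells in 1 tumor, and values of a cluster are pooled over tumors unless a tumor is named. Reads come from transcript ends and were not scaled to length, so levels are compared between classes or tumors. Where UMIs of different genes are set side by side, as in the shares within a family, they are counts and not levels. Nothing in the labels says that the 5 tumors were grown independently, and the p-values measure the spread between these samples.

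SyS-like cells held more RNA of most of these genes than the stromal, endothelial-like or macrophage-like cells of their own tumors, the 3 classes compared. Against stromal cells 6 of the 10 genes were higher and none was lower, namely *Gpc3*, *Gpc4*, all 3 sulfotransferases and *Sulf2* (edgeR, tumor as a block, adjusted p under 0.05). Of 15390 genes outside the clustering set, 17.5% were called higher and 9.63% lower in this comparison. Against endothelial-like cells 9 were higher, where 30.7% of 15473 genes were called higher and 18.6% lower. Against macrophage-like cells 8 were higher, where the shares were 37.5% higher and 23.4% lower of 15068 genes. The clustering set holds the most variable genes, and the 10 genes were kept out of it by name. Over all genes tested, 3094 of 17764 were higher and 2506 lower against stromal cells. These counts were 5326 and 4165 of 17927 against endothelial-like cells, and 6445 and 4911 of 17629 against macrophage-like cells. *Gpc3*, *Gpc4*, *Hs6st2*, *Hs6st3* and *Sulf2* were higher in all 3 comparisons. The median log2 fold change of the 10 genes was 2.17 against stromal, 3.86 against endothelial-like and 4.24 against macrophage-like cells, while that of all genes tested was 0.16, 0.16 and 0.21.

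**Figure D1:**
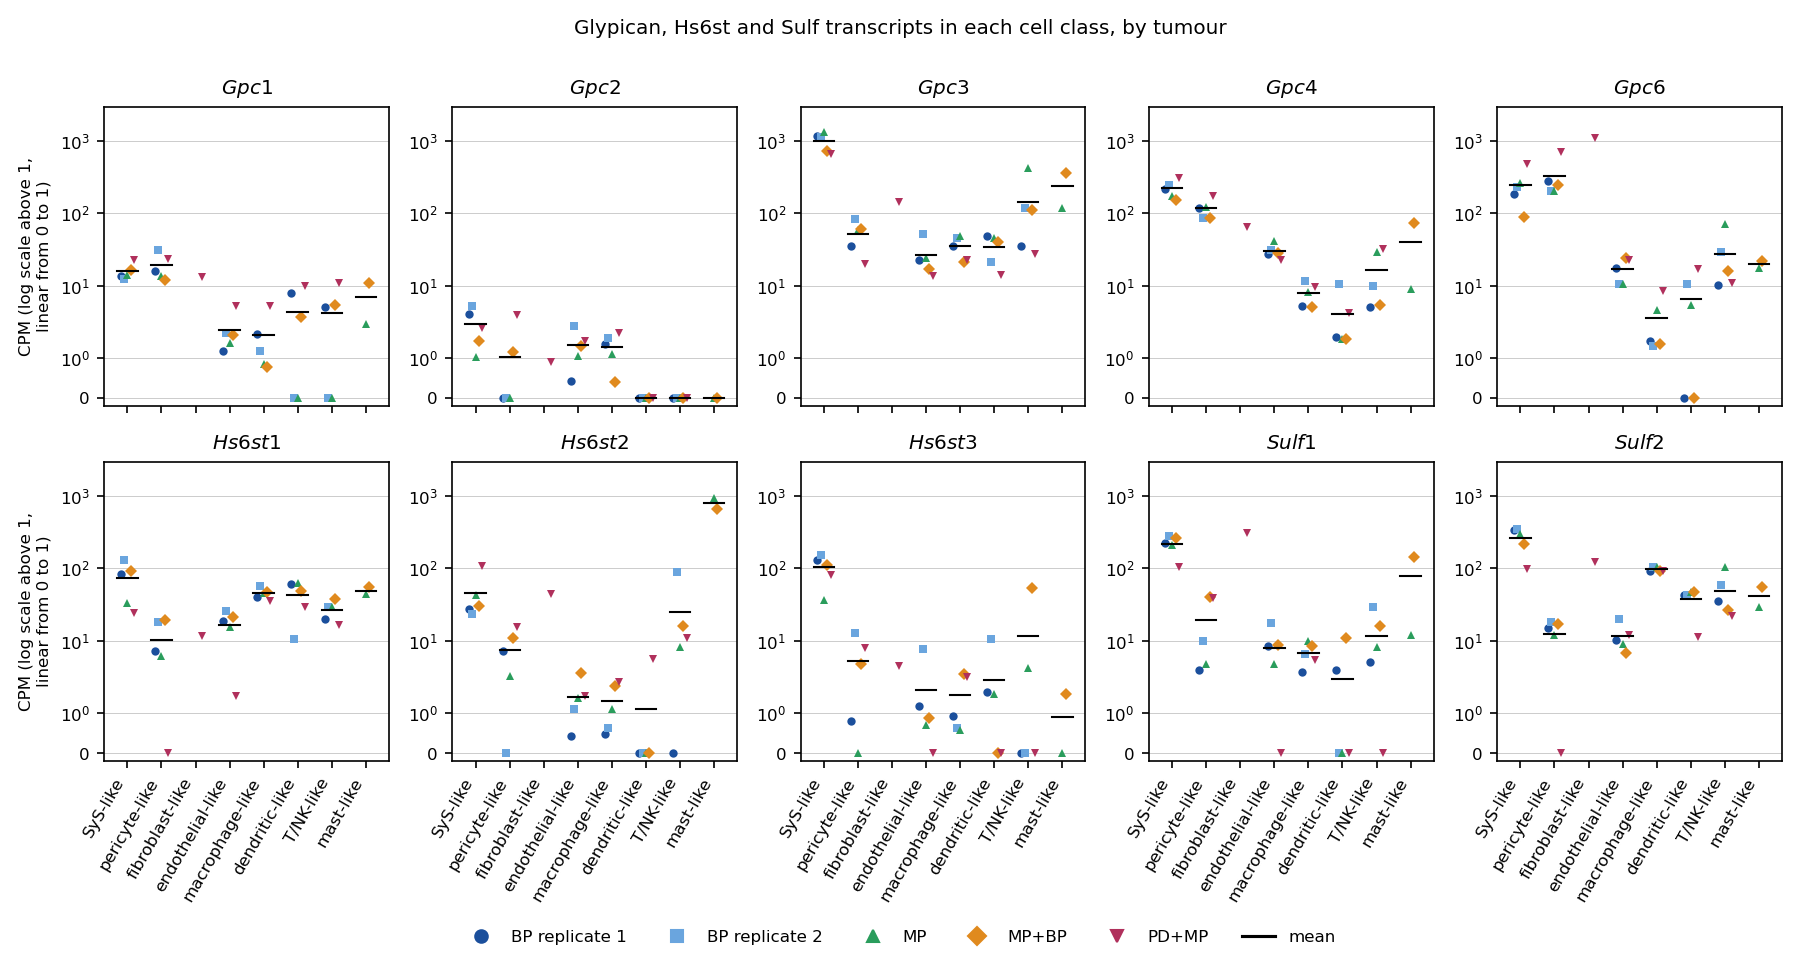
CPM of the 10 genes in each cell class (x axis), one panel per gene, on a log scale above 1 and a linear one from 0 to 1; each point is the sum of at least 20 cells of a class in 1 tumor and each bar the mean over tumors. *Gpc3* sits between 666 and 1343 CPM in SyS-like cells and at no more than 84.6 CPM in pericyte-like, endothelial-like and macrophage-like cells, while *Gpc6* and *Gpc1* are as high in pericyte-like as in SyS-like cells and *Hs6st2* peaks in mast-like cells.

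**Figure D2:**
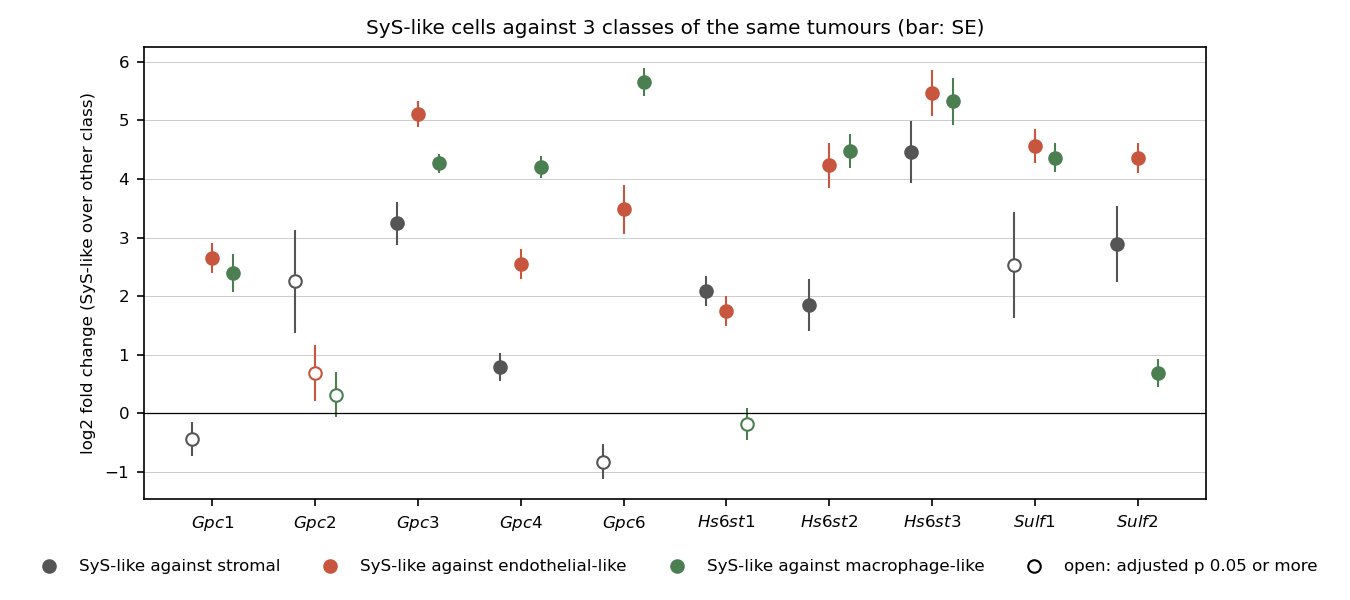
Log2 fold change of each gene (x axis) in SyS-like cells over stromal, endothelial-like or macrophage-like cells of the same tumors, with bars for the standard error of the edgeR fit; open circles mark an adjusted p of 0.05 or more. *Hs6st3* lies at 4.46, 5.47 and 5.33, whereas *Gpc1* and *Gpc6* lie below 0 against stromal cells and *Hs6st1* and *Gpc2* near 0 against macrophage-like cells.

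Among the glypicans, *Gpc3* separated SyS-like cells from every class with large sums. In SyS-like cells *Gpc3* stood at 1172 CPM in BP replicate 1, 1151 in BP replicate 2, 1343 in MP, 727 in the MP+BP tumor and 666 in the PD+MP tumor. In stromal cells of the same tumors, in this order, it was at 55.2, 88.8, 59.0, 129.9 and 121 CPM. The lowest SyS-like value was thus several times the highest stromal one, and the log2 fold change was 3.24 ± 0.37 (SE, n = 5 pairs; edgeR adjusted p = 2.8e-04). Endothelial-like cells held 13.7 to 52.6 CPM (log2 fold change 5.11 ± 0.23, edgeR adjusted p = 2.4e-07) and macrophage-like cells 21.0 to 48.6 CPM (4.27 ± 0.16, 8.7e-09). *Gpc3* in macrophage-like cells was 2.88 to 4.0% of the SyS-like level of the same tumor, and the median of the SyS naming markers was 2.34 to 5.08% there. Single markers spread widely around that median, with *Tle1* at 20.4 to 35.0%, *Nnat* at 5.73 to 55.1% and *Penk* at 6.33 to 203%. The part of free RNA in the macrophage-like level was not tested. Fibroblast-like cells, which only PD+MP held in number (122 cells), reached 145 CPM. Neutrophil-like sums, of 22 to 118 cells, held 247 to 1093 CPM, and there the median SyS marker stood at 36.8 to 93.6% of its SyS-like level.

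*Gpc4*, a close relative of *Gpc6* and an X-linked neighbor of *Gpc3*, differed less from the stroma. It stood at 217, 249, 173, 155 and 313 CPM in SyS-like cells of BP replicates 1 and 2, MP, MP+BP and PD+MP, and at 129, 90.2, 122, 91.7 and 85.3 CPM in their stromal cells. The ranges did not overlap, but the difference was small, with a log2 fold change of 0.79 ± 0.24 (edgeR adjusted p = 0.034), and the call was lost without BP replicate 1 (adjusted p = 0.064), BP replicate 2 (0.116) or MP+BP (0.061). Pericyte-like cells alone reached 172 CPM in PD+MP, inside the SyS-like range. *Gpc4* exceeded endothelial-like cells (22.3 to 40.8 CPM) by 2.55 ± 0.25 and macrophage-like cells (5.05 to 11.5 CPM) by 4.21 ± 0.19 on the log2 scale (edgeR adjusted p = 2.9e-05 and 3.0e-08).

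*Gpc6* and *Gpc1* had log2 fold changes below 0 against stromal cells, and neither was called. *Gpc6* stood at 184, 231, 262, 89.3 and 489 CPM in SyS-like cells and at 283, 201, 211, 263 and 1045 CPM in stromal cells of the same 5 tumors. SyS-like cells were the higher side in 2 of the 5 tumors, and the log2 fold change of −0.82 ± 0.29 missed the threshold (edgeR adjusted p = 0.062). It passed as lower in SyS-like cells under 6 of 14 alternatives, DESeq2 among them (−0.87, DESeq2 adjusted p = 0.031). The highest stromal value came from PD+MP, where 122 of the 160 stromal cells were fibroblast-like and these held 1123 CPM, while pericyte-like cells of that tumor held 698 CPM. Endothelial-like (10.6 to 24.4 CPM) and macrophage-like cells (1.47 to 8.46 CPM) were far lower, by 3.48 ± 0.42 and 5.66 ± 0.24 on the log2 scale (edgeR adjusted p = 1.0e-04 and 2.2e-08).

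*Gpc1*, a broadly expressed family member, gave few UMIs in these libraries. Its SyS-like levels were 13.7, 12.2, 14.1, 16.5 and 22.6 CPM and its stromal levels 19.4, 31.9, 13.4, 12 and 15.2 CPM, which overlap (log2 fold change −0.44 ± 0.29, edgeR adjusted p = 0.29). It was higher in SyS-like than in endothelial-like (1.25 to 5.15 CPM) and macrophage-like cells (0.777 to 5.17 CPM), by 2.65 ± 0.26 and 2.39 ± 0.32 (edgeR adjusted p = 2.3e-05 and 9.3e-05). *Gpc2* also gave few, at 4.11, 5.2, 1.04, 1.70 and 2.60 CPM in SyS-like cells, and the stromal cells of all tumors together held 3 UMIs of it. None of its 3 differences passed the test (log2 fold changes 2.25, 0.69 and 0.32 against stromal, endothelial-like and macrophage-like cells, edgeR adjusted p = 0.084, 0.25 and 0.48). *Gpc2* passed against stromal cells without PD+MP (3.47, adjusted p = 0.029) and without TMM scaling (2.51, 0.046), and against macrophage-like cells without TMM scaling (0.94, 0.048).

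The mix of glypican RNA differed between classes. *Gpc3* gave 67.3% ± 12.8 (SD, n = 5) of all glypican UMIs in SyS-like cells, from 44.6% in the lowest tumor to 74.9% in the highest. In pericyte-like cells its share was 12.2% ± 7.30 and that of *Gpc6* was 59.9% ± 10.5, against 16.4% ± 9.40 in SyS-like cells. In endothelial-like cells the share of *Gpc4* was 39.0% ± 8.05, against 15% ± 4.08 in SyS-like cells. Macrophage-like cells had a *Gpc3* share of 69.6% ± 12.6, close to that of SyS-like cells, on totals as small as 74 glypican UMIs per tumor.

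The 6-O-sulfotransferases each had a class pattern of their own. *Hs6st3* stood at 132, 155, 37.0, 113 and 81.4 CPM in SyS-like cells of BP replicates 1 and 2, MP, MP+BP and PD+MP. Its stromal levels in the same tumors were 0.717, 12.5, 0, 7.64 and 5.06 CPM, resting on 0 to 9 UMIs each; the 0 of MP allows up to 1.09 CPM. The lowest SyS-like value was above all stromal ones, and the log2 fold change was 4.46 ± 0.52 (edgeR adjusted p = 3.4e-04). Endothelial-like cells held 0 to 7.55 CPM and macrophage-like cells 0.568 to 3.50 CPM (log2 fold changes 5.47 ± 0.39, or 6.31 without BP replicate 2, and 5.33 ± 0.40, edgeR adjusted p = 3.7e-06 and 1.2e-06). *Hs6st3* in macrophage-like cells was 0.407 to 3.85% of the SyS-like level, and in each tumor below the median SyS marker.

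*Hs6st2* stood at 27.7, 23.1, 42.6, 30.2 and 107 CPM in SyS-like cells and at 11.5, 0, 3.98, 9.82 and 39.0 CPM in stromal cells. Within each tumor the SyS-like value was the higher one, although both ranges overlapped through PD+MP, which was highest on both sides. The log2 fold change of 1.85 ± 0.44 passed (edgeR adjusted p = 0.013) and was lost when the tumor block was left out (1.54, adjusted p = 0.125). Endothelial-like (0.417 to 3.53 CPM) and macrophage-like cells (0.465 to 2.66 CPM) were lower by 4.23 ± 0.38 (4.83 without MP+BP) and 4.47 ± 0.29 (edgeR adjusted p = 1.5e-05 and 3.7e-07). The highest level of *Hs6st2* was in none of these classes but in mast-like cells, with 951 CPM in 109 cells of MP (95% exact Poisson interval 849.6 to 1061, which covers counting error only) and 662 CPM in 173 cells of MP+BP (595 to 733). There it was 2234% and 2188% of the SyS-like level of the same tumor, whereas the median SyS marker stood at 14.3% and 32.0%. Mast cells make heparin, the most sulfated form of this sugar chain.

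*Hs6st1*, the broadly expressed member, was shared between SyS-like cells and several immune classes. It stood at 84.7, 129.9, 33.6, 91.6 and 24.1 CPM in SyS-like cells, against 40.3, 58.0, 46.0, 47.4 and 35.6 CPM in macrophage-like cells of the same tumors. SyS-like cells were higher in the 3 tumors with BP in the label and lower in MP and PD+MP, and the log2 fold change over all 5 was −0.18 ± 0.27 (edgeR adjusted p = 0.58). Stromal (6.16 to 20.8 CPM) and endothelial-like cells (1.72 to 25.7 CPM) were lower, by 2.10 ± 0.26 and 1.75 ± 0.26 on the log2 scale (edgeR adjusted p = 4.2e-04 and 3.6e-04). Dendritic-like cells, which were not tested, had a mean of 42.6 CPM and stood at 8.15 to 189% of the SyS-like level of their tumor. T/NK-like cells stood at 22.8 to 86.1% and mast-like cells of 2 tumors at 59.5 and 132%, also untested. *Hs6st1* made up 93.2% ± 5.33 of the sulfotransferase UMIs in macrophage-like cells but 31.4% ± 12.2 in SyS-like cells, where *Hs6st3* gave 44.7% ± 8.88.

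Both endosulfatases were higher in SyS-like than in endothelial-like cells, and PD+MP stood apart from the other tumors for both. *Sulf2* stood at 336, 356, 296, 219 and 97.5 CPM there and at 25.1, 20.8, 12.3, 26.2 and 101 CPM in stromal cells. In 4 tumors, whose stromal cells were mostly pericyte-like, the SyS-like value was far above the stromal one, and in PD+MP they were about equal. Fibroblast-like cells of PD+MP, the only ones in number, held *Sulf2* at 123 CPM, above its SyS-like cells. The log2 fold change against stromal cells was 2.90 ± 0.65 (edgeR adjusted p = 0.0099, and 3.62 without PD+MP). Macrophage-like cells held *Sulf2* at a steady 92.5, 103, 105, 92.0 and 91.3 CPM. The difference from SyS-like cells was small and passed (0.68 ± 0.24, edgeR adjusted p = 0.0275), but was lost in each of 4 fits that left out BP replicate 1, BP replicate 2, MP or MP+BP, and with predicted doublets kept (0.43, adjusted p = 0.067). Endothelial-like cells held 6.77 to 20.1 CPM (4.36 ± 0.25, edgeR adjusted p = 9.3e-07).

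*Sulf1* stood at 224, 282, 214, 259.8 and 105 CPM in SyS-like cells and at 22.9, 13.9, 5.07, 63.3 and 259 CPM in stromal cells. SyS-like cells were higher in every tumor except PD+MP, whose fibroblast-like cells held 309 CPM. Over all 5 tumors the log2 fold change of 2.53 ± 0.91 missed the threshold (edgeR adjusted p = 0.064). It passed without PD+MP (3.34, adjusted p = 2.1e-04), with DESeq2 (2.66, 0.0018), without TMM scaling (2.78, 0.0375) and against pericyte-like cells alone (3.79, 5.2e-05), which held 3.98 to 39.8 CPM. Endothelial-like (0 to 17.6 CPM) and macrophage-like cells (3.72 to 9.95 CPM) were lower by 4.56 ± 0.30 and 4.36 ± 0.25 (edgeR adjusted p = 1.9e-06 and 1.5e-07). *Sulf2* made up 53.5% ± 6.25 of the endosulfatase UMIs in SyS-like cells and 93.5% ± 2.03 in macrophage-like cells.

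Keeping the 2957 predicted doublets lowered most of these differences. *Gpc3* then gave log2 fold changes of 1.70, 2.84 and 2.22 against stromal, endothelial-like and macrophage-like cells, and *Hs6st3* gave 1.72, 3.12 and 2.36. The 6 calls against stromal cells then lay between 0.58 (*Gpc4*) and 1.72, and the 9 against endothelial-like cells between 1.54 (*Hs6st1*) and 3.12. The 8 genes called against macrophage-like cells with doublets removed, which leaves out *Hs6st1* and *Gpc2*, then lay between 0.43 (*Sulf2*) and 2.42 (*Hs6st2*). Apart from *Sulf2* against macrophage-like cells, every call named above held with doublets kept. With pericyte-like cells as the only stromal cells, the log2 fold change of *Gpc3* was 4.06 and that of *Sulf2* 4.09, and with at least 1500 genes per cell *Hs6st3* against stromal cells was 3.87. Without TMM scaling the log2 fold changes of the 10 genes moved up together with those of all genes, whose median became 0.43, 0.41 and 0.84, and the split of calls over all genes outside the clustering set became 4664 higher to 1068 lower against stromal cells (2694 to 1482 with TMM), 6555 to 2204 against endothelial-like cells (4747 to 2880) and 9122 to 1772 against macrophage-like cells (5657 to 3520).

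Most SyS-like cells held a *Gpc3* UMI. When each cell was thinned to 2000 UMIs, a *Gpc3* UMI was found in 75.6% ± 11 (SD, n = 5 tumors) of SyS-like cells and 6.68% ± 2.50 of macrophage-like cells, and unthinned in 92.9% ± 5.56 and 16.8% ± 7.23, at median depths of 7768 to 14094 and 4329 to 6752 UMIs. Thinning left out 1253 of 23648 SyS-like and 181 of 3866 macrophage-like cells. *Sulf2* was found in 36.5% ± 13.2 of thinned SyS-like cells, *Gpc4* in 31.4% ± 7.35, *Sulf1* in 29.7% ± 7.98 and *Gpc6* in 28.5% ± 12.7, against 16.6% ± 0.908, 1.70% ± 0.375, 1.06% ± 0.372 and 0.551% ± 0.808 of macrophage-like cells. *Hs6st3* was found in 13% ± 5.21, *Hs6st1* in 12.2% ± 7.18 and *Hs6st2* in 7.26% ± 5.45 of SyS-like cells, against 0.207% ± 0.208, 8.48% ± 1.76 and 0.357% ± 0.242 of macrophage-like cells. *Gpc1* (3.00% ± 0.698) and *Gpc2* (0.508% ± 0.325) were seldom captured at this depth. At least 2 different glypicans were seen in 42.3% of thinned SyS-like cells of BP replicate 1, 47.8% of BP replicate 2, 46.2% of MP, 24.2% of MP+BP and 53.8% of PD+MP, and no glypican in 27.0% of MP+BP and 6.47 to 11.3% of the other tumors.

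Among SyS-like cells the genes varied between tumors by different amounts. The highest tumor exceeded the lowest by 2.02-fold for *Gpc3* and for *Gpc4*, by 4.62-fold for *Hs6st2* and by 5.47-fold for *Gpc6*. The question of whether histology goes with these genes was put by comparing the 3 tumors with BP in the label (BP and MP+BP) with the 2 without (MP and PD+MP). None of the 10 genes passed after adjustment, and the background was 0.0% of 20674 genes in either direction (edgeR), so the comparison made no call anywhere. At an unadjusted p under 0.05 there were 4 of the 10 genes, where 5.15% of all genes were higher and 3.81% lower.

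*Hs6st1* was the most separated, with a mean of 102 CPM (84.7 to 129.9) in the tumors with BP in the label and 28.8 CPM (24.1 and 33.6) in the others (log2 difference 1.77 ± 0.31, edgeR adjusted p = 0.49). *Hs6st3* lay on the same side, with means of 133 and 59.2 CPM (1.10 ± 0.40, adjusted p = 0.55 by edgeR). *Hs6st2* and *Gpc6* lay on the other, with means of 27.0 and 74.7 CPM for *Hs6st2* (−1.55 ± 0.40, adjusted p = 0.55 by edgeR) and 168 and 376 CPM for *Gpc6* (−1.22 ± 0.48, adjusted p = 0.56 by edgeR). The sides did not overlap for these 4 genes and for *Sulf1* (means of 255 and 159.6 CPM, the latter from 105 and 214 CPM), and 26.7% of the 20674 genes did not overlap either. *Gpc3*, in contrast, had means of 1017 and 1004 CPM. DESeq2 called *Hs6st1* higher (1.75, adjusted p = 3.2e-04) and *Hs6st2* lower (−1.58, adjusted p = 0.045), and edgeR without MP called *Hs6st2* lower (−2.12, adjusted p = 0.033). *Hs6st2*, like *Gpc6*, was highest in PD+MP, and without that tumor its log2 difference shrank to −0.72. In that fit the log2 difference of *Gpc4* turned to 0.22 from −0.29 and *Sulf2* to −0.0094 from 0.58.

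**Figure D3:**
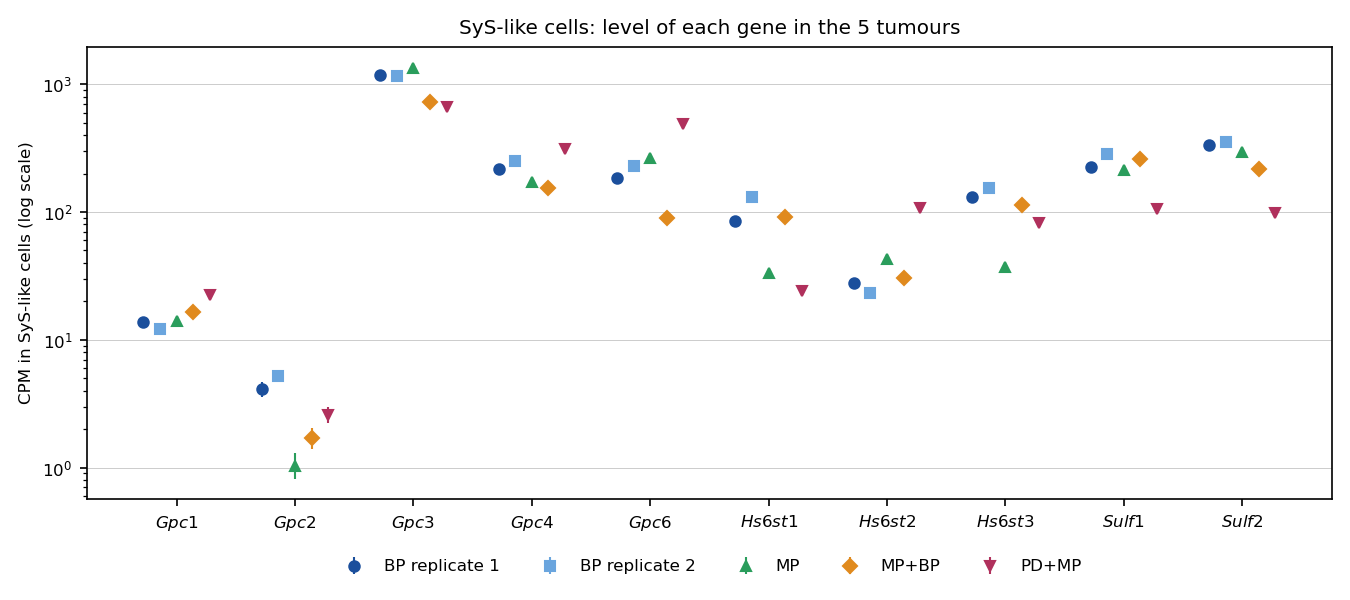
CPM of each gene (log scale) in the SyS-like cells of the 5 tumors, with bars for the 95% exact Poisson interval, which is mostly smaller than the symbols. *Hs6st1* and *Hs6st3* are lowest in MP and PD+MP, *Gpc6* and *Hs6st2* are highest in PD+MP at 489 and 107 CPM, and *Sulf1* and *Sulf2* are lowest there.

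Within the tumors, the 13 SyS-like clusters differed in these genes. Every cluster took most of its cells from 1 tumor, so that cluster and tumor are partly the same thing, and the values are given as a description. *Gpc3* ranged from 293 CPM in cluster c21 to 1316 CPM in cluster c14, with a median of 1030.3 CPM. Cluster c14 was also the highest in *Mki67*, a gene of dividing cells, at 302 CPM. Cluster c21 (459 cells, 57.3% from MP+BP) was led by *Mgp* and *Col1a1*, matrix genes at 15692 and 2059 CPM. Within BP replicate 2, MP+BP and PD+MP its *Hs6st2* was at 4.59, 14.4 and 9.64 CPM, in each case the lowest cluster of the tumor. Its *Gpc3* was at 80.3, 360.4 and 216 CPM, the lowest in BP replicate 2 and PD+MP and next to the lowest in MP+BP. Its endosulfatases had no common direction. *Sulf1* in c21 was at 149 CPM in BP replicate 2, the lowest cluster there, at 357 CPM in MP+BP, below c8 (396 CPM), and at 532 CPM in PD+MP, the highest there. *Sulf2* was the lowest cluster in BP replicate 2 (220.3 CPM) and MP+BP (142 CPM) and the highest in PD+MP (247 CPM). EGFP in cluster c21 stood at 36.8 CPM, inside the range of all SyS-like clusters (15.5 to 39.7 CPM), and how far stromal RNA entered it was not tested.

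Cluster c9 (1739 cells, 67.3% from MP+BP) was led by *Npnt* and *Pthlh*. It had the highest levels of *Cdh1* (26.4 CPM) and *Krt8* (17.9 CPM), genes of epithelial junctions and filaments that were picked after the values were seen. Of both genes only *Cdh1* set c9 apart, because *Krt8* also stood at 17.5 CPM in c2 and 12.9 CPM in c11, clusters of PD+MP. *Cdh1* was at 0.790 CPM in c2 and 0.155 CPM in c11. Cluster c9 held *Hs6st3* at 237 CPM, the highest of the 13 clusters. Its *Gpc3* (494 CPM) and *Gpc4* (106 CPM) were both next to the lowest. In the 3 tumors with enough of these cells, BP replicate 1, MP and MP+BP, its *Gpc3* was 683, 977 and 299 CPM, in each case the lowest cluster of the tumor. Its *Hs6st3* was 163, 121 and 310 CPM, the highest cluster of MP and of MP+BP. Clusters c11 and c12, from PD+MP and led by *Igf2* with *H19* or *Nrg1*, held *Gpc6* at 599.7 and 713 CPM and *Hs6st2* at 128 and 149 CPM, with *Sulf2* at 107 and 79.4 CPM. Cells of c12 were much shallower than those of c11. EGFP, at 34.1 CPM in c12 and 38.6 CPM in c11, gave 179 UMIs in 1412 cells and 1247 UMIs in 1459 cells. The part of depth in the levels of c12 was not tested. Cluster c2, the largest of PD+MP (2830 cells) and also led by *Igf2* and *H19*, held *Gpc6* at 344 CPM, *Hs6st2* at 81.6 CPM and *Sulf2* at 86.9 CPM. These clusters differed in *Mki67* as well, at 265 CPM in c11, 148 CPM in c12 and 20.6 CPM in c2. The part of cell division in their levels was not tested. *Hs6st1* was highest in cluster c20, at 165 CPM, and lowest in c12, at 22.8 CPM.

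**Figure D4:**
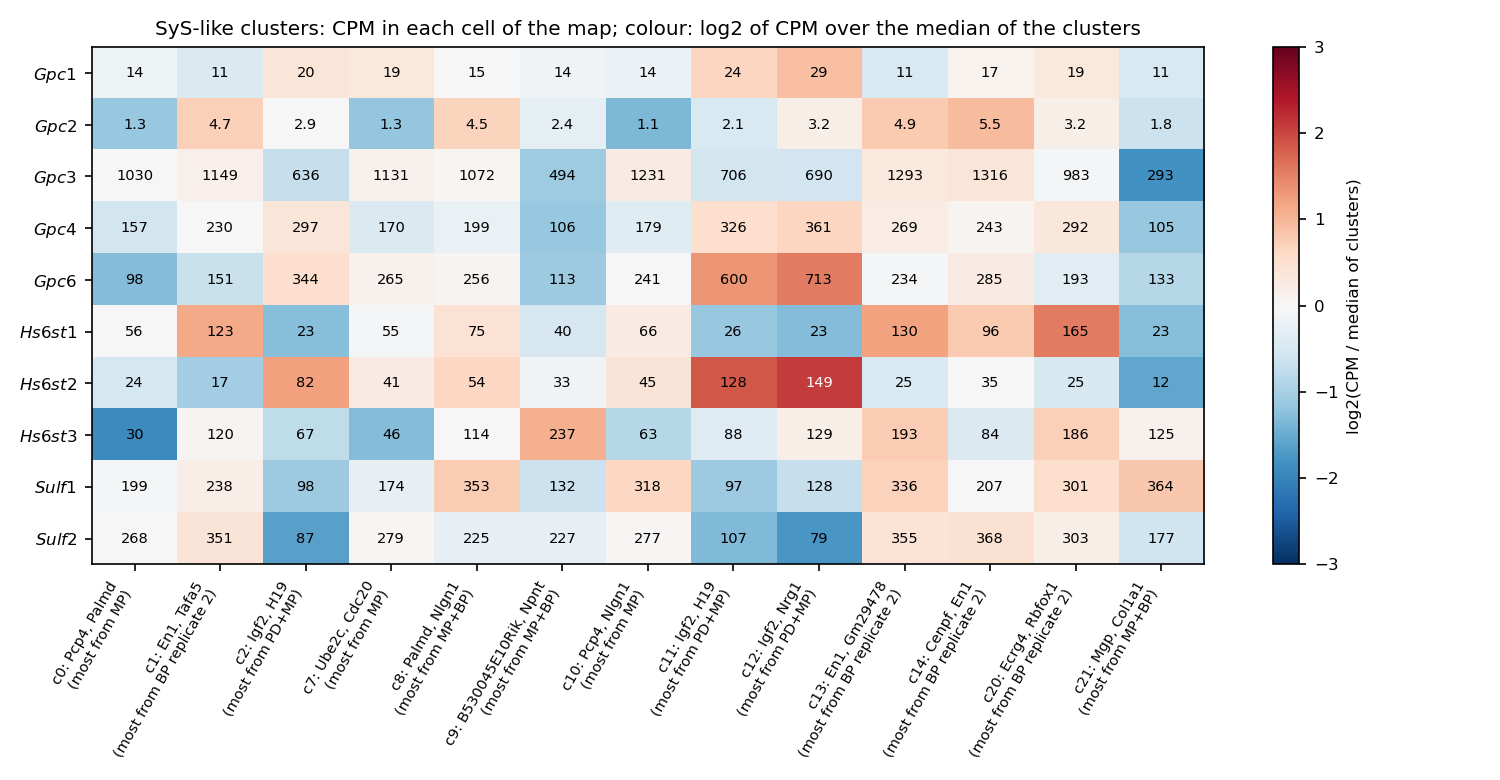
CPM of the 10 genes (rows) in the 13 SyS-like clusters (columns, with their leading genes and the tumor that gave most cells); the number in each field is the CPM and the color is its log2 ratio to the median cluster. The columns of PD+MP are high in *Gpc6* and *Hs6st2* and low in *Sulf2*, c9 is high in *Hs6st3* at 237 CPM, and c21 is low in *Gpc3* at 293 CPM and, pooled over tumors that differed, high in *Sulf1* at 364 CPM.

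The other genes of the pathway were read from a list of 39. Against stromal cells 37 were tested, 5 of them with more RNA in SyS-like cells and 12 with less, with a median log2 fold change of −0.14 (0.16 over all genes). That is 13.5% higher and 32.4% lower, against 17.5% and 9.63% of the background genes, and over the alternatives 1 to 10 were higher and 7 to 12 lower. The background leaves out the variable genes of the clustering set, from which the list was withheld by name. Over all 17764 genes tested, 3094 were higher and 2506 lower. The other core proteins were mostly lower (1 higher, 6 lower of 8). *Col18a1*, the core of collagen XVIII, fell from 352 ± 164 CPM (SD, n = 5) in stromal to 46.6 ± 15.2 CPM in SyS-like cells (log2 fold change −3.14, edgeR adjusted p = 7.7e-05), and perlecan (*Hspg2*) from 99.9 ± 65.8 to 38.7 ± 14.5 CPM (−1.50, edgeR adjusted p = 0.045). The *Hspg2* difference was −0.94 without PD+MP (adjusted p = 0.0017), whose stromal level was 217 CPM against 59.7 to 79.6 CPM in the other tumors, and 9 of 14 alternatives lost the call, among them each fit without one of the other 4 tumors. Syndecan-2 (*Sdc2*) was lower as well, at 77.4 ± 7.81 against 169 ± 41.8 CPM (−1.37, edgeR adjusted p = 8.0e-04), whereas syndecan-4 (*Sdc4*) was higher, at 116 ± 39.2 against 55.8 ± 26.7 CPM (0.82, edgeR adjusted p = 0.025, a call that 6 of 14 alternatives lost, each fit without one of BP replicate 1, BP replicate 2, MP and MP+BP among them). *Sdc3* was the only gene of the list that was lower in all 3 comparisons (−0.73, −1.45 and −2.84), and its call against stromal cells was lost without BP replicate 1, without MP and without TMM scaling.

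Of the 3-O-sulfotransferases, which add the rarest sulfate of the chain, 3 were higher and none lower of 6 tested. *Hs3st3b1* stood at 62.2 ± 18.2 CPM in SyS-like cells against 14.5 ± 7.80 CPM in the stroma (1.93, edgeR adjusted p = 0.0013) and was the only gene of the list that was higher in all 3 comparisons. *Hs3st3a1* was at 14.4 ± 10.4 against 2.61 ± 3.56 CPM (2.42, edgeR adjusted p = 0.016), and *Hs3st4* (1.94, edgeR adjusted p = 0.039) rested on 5 UMIs in all stromal cells. The call of *Hs3st3a1* was lost in 4 of 14 alternatives, one of them without MP (2.19, adjusted p = 0.072), and that of *Hs3st4* in 9, among them every fit without one of BP replicate 1, BP replicate 2, MP and MP+BP. The linker enzyme *B3galt6* was higher (0.96, edgeR adjusted p = 0.049), a call that was lost in 7 of 14 alternatives, among them without BP replicate 2, MP or MP+BP, and the sulfate donor enzyme *Papss2* was lower (−2.23, edgeR adjusted p = 0.0060). *Ndst3*, one of the N-sulfotransferases, had 68 UMIs in all SyS-like cells, or 0 to 0.612 CPM, against 35.4 to 323 CPM in stromal cells (edgeR adjusted p = 7.4e-06). By role, the remaining counts were 1 higher and 1 lower of 6 linker genes, 0 and 1 of 5 polymerases, 0 and 1 of 3 N-sulfotransferases, 0 and 1 of the 2 epimerase and 2-O-sulfation genes, 0 and 2 of 4 sulfate donor genes, and 0 and 0 of 3 heparanase and shedding genes. Against endothelial-like cells 12 of 35 genes tested were higher and 10 lower, and against macrophage-like cells 17 of 35 were higher and 10 lower. As shares these are 34.3% and 28.6%, against 30.7% and 18.6% of the background genes, and 48.6% and 28.6%, against 37.5% and 23.4%. With the clustering genes counted too, 5326 of 17927 genes were higher and 4165 lower against endothelial-like cells. Against macrophage-like cells these counts were 6445 and 4911 of 17629.

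**Figure D5:**
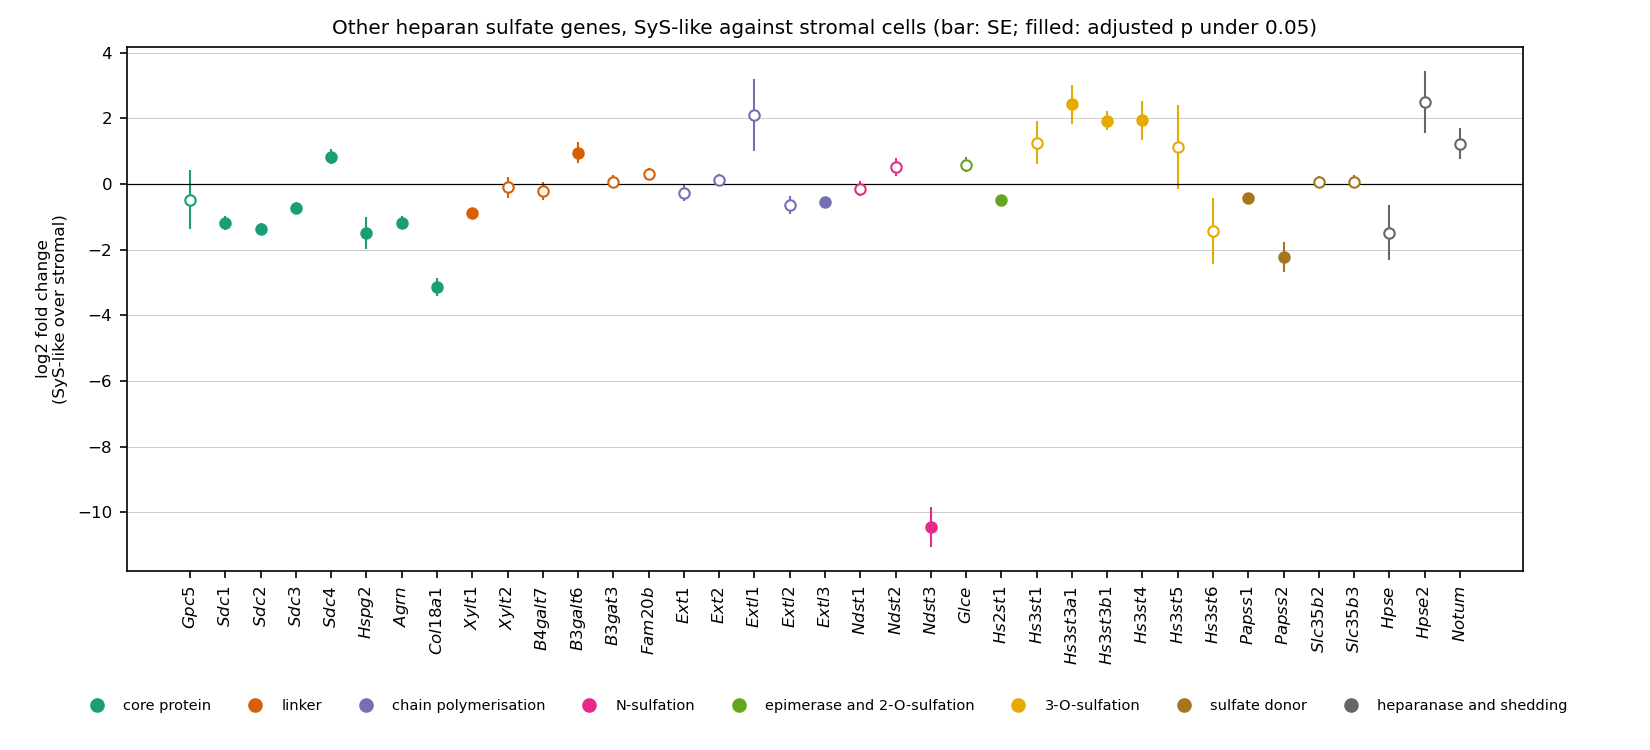
Log2 fold change of the 37 other heparan sulfate genes tested in SyS-like over stromal cells, colored by role, with bars for the standard error of the edgeR fit and filled points for an adjusted p under 0.05. Core proteins other than *Sdc4* lie at or below 0, *Ndst3* lies at −10.46, and *Hs3st3a1*, *Hs3st3b1* and *Hs3st4* lie near 2.

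The genes whose pattern was most like the leading gene of each family were found over 31 sums of a class in a tumor, among 12012 genes. On log2(CPM + 1), *Gpc3* was nearest to *Igfbpl1* (Pearson r = 0.957), *Col2a1* (0.954) and *Ank3* (0.947). *Hs6st3* was nearest to *Gprasp2* (0.910), EGFP (0.883) and *Scube3* (0.880), and *Sulf2* to *Vegfa* (0.826), *Grik3* (0.811) and *Kif1a* (0.800). These coefficients describe sums that share libraries and differ in depth, and most SyS-like sums lie toward the high end. For *Sulf2* the classes overlapped. Its SyS-like sum of PD+MP, at 97.5 CPM, lay below the macrophage-like sums of BP replicate 2 (103 CPM) and MP (105 CPM).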

How the data were processed

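Single-cell suspensions of 5 tumors were sequenced with a droplet 3′ kit. The deposited data were UMI counts per gene and cell, which were not normalized. The header of the counts names Cell Ranger 7.2.0, and the submitters' processing notes name the genome build mm10. Cells with at least 750 genes and at most 25% mitochondrial counts were kept. The cells with the highest Scrublet scores, up to the expected doublet share of each library, were removed, because the automatic threshold marked 0 cells in 2 libraries. Cells were clustered on 3000 genes, without the 10 genes and the other heparan sulfate genes, using 30 components, 20 neighbors and Leiden resolution 1 (scanpy 1.11.5, leidenalg 0.10.2). A cluster was named for the class with most markers raised in it (at least 3), unless markers of some other class outnumbered its own among its top 10 genes (2 clusters stayed unnamed for this) or its median UMI count was under 33.3% of that of its samples with no own marker among those 10 (3 clusters). Raw counts were summed per tumor and class (at least 20 cells) and tested with edgeR 4.0.16 in R 4.3.3 (quasi-likelihood test, TMM, filterByExpr), with the tumor as a block in the comparisons between classes and without one between histologies. P-values were adjusted by Benjamini-Hochberg over all genes tested, with a threshold of 0.05. Levels are CPM of those sums. The script was tested on simulated data.

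Depth was 89996321 to 118649103 UMIs per tumor, and intervals (95%, exact Poisson) and the limits given for a count of 0 (3 counts) cover counting error only. Besides all 10 genes, those named by rule were, of the pathway list, the 5 with the largest rise and the 5 with the largest fall against stromal cells, genes called alike in all comparisons, and, for the leading gene of each family, the 3 genes with the highest Pearson r. Members, markers and lists were chosen with earlier results of these data known. The levels of *Cdh1*, *Krt8*, *Mki67*, *Col1a1* and *Mgp* by cluster were picked after the values were seen. Alternatives were DESeq2 1.42.0, no TMM, no count filter, no tumor block, each tumor left out, doublets kept, at least 1500 genes per cell, Leiden resolution 2, pericyte-like cells alone, thinning to 1000 UMIs and, chosen after seeing the data, the unnamed clusters counted as SyS-like. Coordinates are those of GENCODE M21, to which 32235 of 32286 feature identifiers matched.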

Additional observations from a re-analysis of the deposited data

Results flagged for a closer look

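In 40 groups of 5 tumors, 1 tumor was looked for that lay far from the other 4 (Dixon's criterion), and chance marks about 1 in 20 such groups. *Hs6st2* in SyS-like cells stood at 106.9 CPM in PD+MP against 23.1 to 42.6 CPM in the other tumors. In stromal cells PD+MP was far above the rest for *Gpc6* (1045 CPM against 201 to 283 CPM), *Sulf1* (258.8 CPM against 5.07 to 63.3 CPM) and *Sulf2* (100.5 CPM against 12.3 to 26.2 CPM), and fibroblast-like cells were 122 of the 160 stromal cells there. *Gpc1* in endothelial-like cells reached 5.149 CPM in PD+MP on 3 UMIs. In endothelial-like cells of BP replicate 2, *Gpc3* was at 52.58 CPM against 13.7 to 24.3 CPM, and *Hs6st3* was at 7.552 CPM on 27 UMIs against 0 to 1.25 CPM.

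*Hs6st1* in SyS-like over macrophage-like cells went in opposite directions in both kinds of tumor. The mean log2 ratio was 1.06 in the 3 tumors with BP in the label, each above 0, and −0.509 in MP and PD+MP, each below 0, a difference of 1.57 that was not tested.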

How the results depend on the processing

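Over all alternatives, 49 of 51 counts of called genes stayed within 1.5 times the value first given, 475 of 510 fold changes of the 10 genes kept both direction and call, 16 gained a call, 9 lost one and 10 changed sign, and all 40 mean levels moved by less than their SD. The counts that moved were those between histologies, where DESeq2 called 2 genes and the fit without MP called 1, against 0. Leaving out 1 tumor at a time gave 5 to 8 called genes against stromal, 9 against endothelial-like, 7 to 8 against macrophage-like cells and 0 to 1 between histologies. *Hs6st1* against macrophage-like cells (−0.18) became 0.44 without TMM, 0.052 without the tumor block, 0.027 without MP and 0.071 without PD+MP, from a low of −0.37 over the fits without 1 tumor. Between histologies *Gpc3* (−0.036) became 0.018 without TMM, 0.48 without MP, 0.15 without MP+BP and 0.027 with at least 1500 genes per cell, with a low of −0.45 without PD+MP. *Gpc4* (−0.29) became 0.22 without PD+MP, with a low of −0.72 without MP, and *Sulf2* (0.58) became −0.0094 without PD+MP. None of these passed the test, and the cause was not tested. Over all genes outside the clustering set, leaving out 1 tumor gave 1775 to 3153 higher and 1002 to 1819 lower against stromal cells (2694 and 1482 with all). Between histologies DESeq2 called 388 genes higher and 72 lower, and edgeR without MP 268 and 159, against 0. Thinning to 1000 UMIs lowered the share of SyS-like cells with a UMI to 55.1% for *Gpc3*, 20.9% for *Sulf2*, 17.9% for *Gpc4*, 17.4% for *Sulf1*, 7.58% for *Hs6st3* and 1.53% for *Gpc1*, by construction. No paired analysis was possible between histologies, because each tumor has 1 label, and Leiden resolution 2 was not run there. Of 206 fold changes of the named pathway genes, 38 lost their call and none changed sign. Depth limits what the small sums show: *Gpc2* and *Hs6st3* had at most 9 UMIs in any stromal sum, and the sum of endothelial-like cells in PD+MP held 582694 UMIs.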

Other observations

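At a depth of 2000 UMIs per cell, both endosulfatases were seen together in 2.71% of SyS-like cells of PD+MP and in 11.4 to 18.5% of those of the other 4 tumors, and at least 2 of the 3 sulfotransferases in 1.23% (MP) to 5.29% (BP replicate 2). In the unnamed clusters with SyS markers, which entered no comparison, *Hs6st3* stood at 64.4 to 164 CPM and *Sulf2* at 94.8 to 323 CPM over the 5 tumors, and EGFP at 31.8 to 39.3 CPM.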
